A study of Mus musculus with 24 samples.

Results

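BAF180-deficient Naïve CD4+ T cells were compared after 24 h on anti-CD3 and anti-CD28 and at rest. The 3 stimulated and 3 resting arrays, labelled replicates A, B and C, were chosen by their labels of genotype and state and are 6 of the 24 arrays of the series. Another 6 arrays of WT Naïve cells in the same states stand beside them. The 12 arrays of Th2 cells entered only the normalization, the detection filter, the choice of probe and the shared estimate of the spread. Each array was hybridized with labelled cRNA from total RNA and gave an intensity for every probe of an Illumina MouseRef-8 v2 BeadChip. The labels give the mice as Balb/c animals 4 to 6 weeks old, whose spleens and lymph nodes supplied Naïve CD4+ cells selected to 95% purity. The methods of the study describe the strain otherwise, so the background of the mice is unsettled. The BAF180-deficient mice (BAF180 fl/fl) carried a floxed exon of the BAF180 gene, Pbrm1, and a Cre transgene driven by CD4 regulatory elements, which act late in thymic development, so that the design removes the exon before cells become Naïve T cells. No allele is named for the WT mice. Stimulated cells of both genotypes had been kept on plates coated with antibody to CD3 (1 µg/ml) and to CD28 (2 µg/ml), and resting cells had received neither. The mice were used as 3 pairs, each with 1 animal of either genotype, while the labels tie no letter to a pair or a mouse, so the tests measure the spread between these samples.

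Anti-CD3 crosslinks the T cell receptor and anti-CD28 supplies the costimulatory signal, and together they replace an antigen-presenting cell. A resting Naïve T cell is small and quiescent. Within a day of such a signal it takes up nutrients, builds ribosomes and nucleotides, turns on cytokine genes, leaves the program that kept it quiescent and enters its first division cycle. BAF180 is the subunit with several bromodomains that defines PBAF, a form of the SWI/SNF complexes, which use ATP to move nucleosomes. PBAF lacks the BAF250 subunits of the other main form, BAF. The comparison asks which parts of activation were present, and how large they were, when BAF180 was missing.

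All values are log2 intensities after background correction and quantile normalization, or differences of them, and are listed in the order of replicates A, B and C. A response is the mean of the 3 stimulated arrays minus the mean of the 3 resting arrays, given with its standard error (SE). A gene rose or fell when the adjusted p of limma was below 0.05. Where a gene was not detected on any array of a group, its fold is a lower bound and is written as at least N-fold. Levels of undetected genes lie near the floor of the scale. Folds also rest partly on such levels where only some arrays of a group detected the gene. In BAF180-deficient cells this was so at rest for Eif4ebp1, Tbx21, Tnfrsf9 and Tnfsf8 (1 of 3 arrays) and for Bcl2l1, Cd200, Cdc6, Il17f, Mcm7, Myc and Smarcc2 (2 of 3), after stimulation for Ccnd1 and Vcam1 (1 of 3) and LOC229665 (2 of 3), and in both states for Dapl1 (1 of 3 each). Each gene is read from its brightest probe. Of 58 named and called genes with several probes, 22 had a dimmer probe that was not called in the same direction, among them Bcat1, Cdc6, Ebna1bp2, Iars, Trib3, Tyms, Lif, Gbp2, Smarcc1, Ahnak, Bbc3, Bcl2, Lyz1, Slc38a2, Trat1 and Pbrm1, and 0 had one called in the opposite direction.

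The Naïve BAF180-deficient arrays had between 8417 and 10689 detected probes, and the WT Naïve arrays between 8047 and 10179. T cell identity was checked with 10 marker genes, all detected on every Naïve array of BAF180-deficient cells. Their mean level was 10.1 to 10.4 at rest and 9.01 to 9.56 after stimulation, and Cd3e, a chain of the T cell receptor complex, read 11.07, 10.70 and 10.35 at rest and 10.15, 10.12 and 9.55 after stimulation. Resting cells also carried RNA of other cell types. The 11 myeloid markers measured had a mean level of 7.82 to 8.33 on the resting BAF180-deficient arrays, where 10 or 11 of them were detected, and of 4.41 to 4.53 after stimulation, where 3 to 5 were detected. For 10 B cell markers the means were 8.15 to 8.76 and 5.98 to 6.55. WT cells moved in the same way, with myeloid means of 7.53 to 8.71 at rest and 4.43 to 4.70 after stimulation. The resting WT replicate C stood apart in 6 red blood cell genes, with a mean of 8.81 against 5.01 for the lowest WT resting array, and in the myeloid markers. In these bulk samples fewer cells of a type and less RNA per cell cannot be told apart.

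Pbrm1, the targeted gene, read 7.88, 7.28 and 7.41 in resting and 6.36, 7.06 and 7.41 in stimulated BAF180-deficient cells. WT cells gave 8.20, 8.72 and 8.69 at rest and 8.29, 8.76 and 8.67 after stimulation, and no BAF180-deficient array reached the level of any WT array. The difference was -1.63 ± 0.23 (SE, adjusted p = 0.00746) in stimulated cells and -1.01 ± 0.23 in resting cells, where it missed the threshold (adjusted p = 0.121, limma). Within the BAF180-deficient cells Pbrm1 fell by 0.58 with stimulation (adjusted p = 0.0451), a call lost under median scaling (0.35), and the resting and stimulated values touched at 7.41. These values come from the brightest of 3 probes, which overlap in runs of 14, 15 and 49 bases. The other probes were near the floor, with means of 4.28 and 4.39 in resting BAF180-deficient cells. The position of the probes relative to the deleted exon is not given in the sources used here, so they check the labels only through the amount of transcript. By immunoblot the paper reported BAF180 protein as completely lost, with Th2 cells shown, and the arrays do not measure protein.

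Activation took place without BAF180 on a wide scale. Of 10418 genes tested, 2300 rose (22.1%) and 2217 fell (21.3%) with stimulation of BAF180-deficient cells, and 1154 of the risers and 1162 of the fallers changed by at least 2-fold. The WT cells gave 2424 risers (23.3%) and 2280 fallers (21.9%). The balance of rises and falls depended on how the arrays were put on a common scale. With scaling by the median in place of quantile normalization, 81.9% of the BAF180-deficient calls were rises, against 50.9%, and 82.2% of the WT calls were, against 51.5%. That scaling moved the median response of all genes to 0.27 in BAF180-deficient and 0.25 in WT cells, from -0.01 in each. Falls are therefore falls relative to the other genes on the array, and counts under median scaling are given beside the lists where the balance turned. Over all genes that scaling gave 3090 rises and 685 falls in BAF180-deficient cells. The counts of each list below are to be read against these shares of all genes.

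The responses of the genotypes lay close together. Of the BAF180-deficient calls 3859, or 85.4%, were also called in WT cells in the same direction, which is 82.0% of the WT calls, and 0 were called in opposite directions. Another 658 genes were called in BAF180-deficient cells alone and 845 in WT cells alone, and the signs of the responses were the same in 619 and 809 of them. The responses share no array. Across genes, which are not independent replicates, their Pearson correlation was 0.966, and the spread of the response over genes had an SD of 0.965 in BAF180-deficient and 0.984 in WT cells, a ratio of 0.981. The plot of the paired responses shows the listed groups lying along the diagonal.

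**Figure D1:**
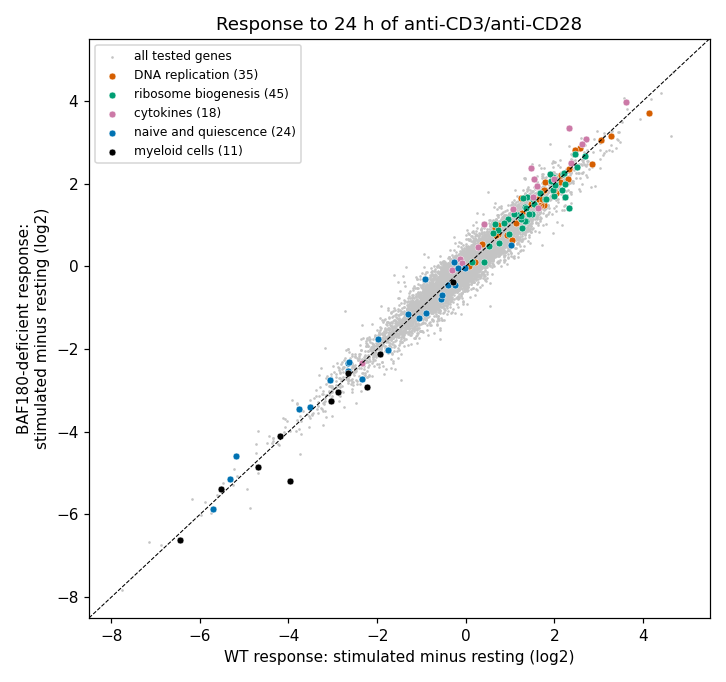
Response of each of 10418 genes to 24 h of anti-CD3 and anti-CD28 in WT (x axis) and BAF180-deficient (y axis) Naïve cells, as differences of mean log2 intensity (n = 3 arrays per group). Coloured points are members of 5 lists, the dashed line marks equal responses, and the points follow it over the whole range (Pearson correlation 0.966).

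The difference between the responses was then tested for every gene in the same model. At an adjusted p below 0.05 only 1 gene, or 0.00960% of those tested, was called, and the next lowest adjusted p was 0.406. At an unadjusted p below 0.05 the response was larger (more positive) in BAF180-deficient cells for 109 genes (1.05%) and smaller for 128 (1.23%). Together these 237 genes are a smaller share than the 0.05 that this threshold passes on average when no gene differs. An unadjusted p below 0.05 therefore does not set apart the genes named with it below. The 95% confidence interval of the difference had a median half-width of 0.57, without adjustment for the number of genes. Of the 2316 genes that changed by at least 2-fold in BAF180-deficient cells, 1483 (64.0%) had an interval lying within 2-fold on either side of equal responses. For the others these arrays do not bound the difference that closely.

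The steepest rises belonged to metabolism, effector function and replication. Asns, which makes asparagine, read 5.80, 5.05 and 5.65 at rest and 9.75, 10.50 and 10.35 after stimulation, a 26-fold rise of 4.70 ± 0.53 (adjusted p = 4.8e-07). Bcat1, which starts the breakdown of branched-chain amino acids, went from 5.83, 5.42 and 5.48 to 10.37, 9.62 and 9.35, a rise of 4.20 ± 0.26. Eif4ebp1, a brake on translation initiation that mTOR releases, rose 16.8-fold. In each of these genes the groups were far apart.

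Ido1, an enzyme that degrades tryptophan, was at the floor at rest and read 8.44, 7.34 and 8.83 after stimulation, at least a 10.5-fold rise. Bdh2 read 8.11, 8.10 and 7.25 and rose at least 8.06-fold. The others among the 10 steepest were Chac1, Il3, Mcm10, Psat1 and Ifng, described with their groups below. None of the 10 had an interval of the difference between genotypes that excluded 0.

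The groups of the cell cycle rose almost throughout. The DNA replication list holds 38 genes, of which 35 were tested. In BAF180-deficient cells 33 rose and 0 fell, with a median response of 1.64 against -0.01 over all genes, and in WT cells 33 rose and 0 fell with a median of 1.75. Mcm10, which helps to open the origin for the polymerases, went from 6.07, 5.32 and 5.44 to 8.97, 9.44 and 9.52, a 13-fold rise of 3.70 ± 0.31 (adjusted p = 8.7e-09). Cdc45, part of the replicative helicase, went from 5.0, 4.94 and 5.15 to 8.28, 8.27 and 7.96, 8.82-fold. Cdc6, which loads the helicase onto origins, rose 8.27-fold, and Mcm7, a subunit of that helicase, 7.31-fold. The median difference between genotypes over the list was -0.01, and 17 of the 35 responses were larger in BAF180-deficient cells, against 50.1% of all genes.

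Of 22 G1 cyclins, E2F factors and their partners, 19 were tested. In BAF180-deficient cells 12 rose and 2 fell, with a median of 0.96 against 0.83 in WT cells. E2f1, the transcription factor that drives S phase genes, read 6.24, 6.34 and 6.12 at rest and 8.60, 8.42 and 8.37 after stimulation, a rise of 2.23 ± 0.19 (adjusted p = 9.8e-09). Ccne1, which with Cdk2 starts S phase, was not detected at rest and rose at least 2.73-fold. Ccnd1, a D-type cyclin, went the other way, from 8.03, 8.14 and 7.48 to 4.67, 4.51 and 4.68, a 9.57-fold fall, and Rb1 was the other member that fell, a fall not called under median scaling (0.26). The E2F partner Tfdp1 rose 4.02-fold, from 8.36, 8.17 and 8.67 to 10.70, 10.22 and 10.29.

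The mitosis list holds 45 genes and 32 were tested. In BAF180-deficient cells 27 rose and 0 fell, and the same counts were found in WT cells, with medians of 1.56 and 1.54. Cdk1, the kinase that starts mitosis, read 6.14, 5.49 and 5.55 at rest and 8.33, 8.22 and 9.07 after stimulation, a 7.04-fold rise of 2.81 ± 0.29 (adjusted p = 1.2e-07). Top2a, which untangles sister DNA, rose 4.86-fold, from 6.94, 6.89 and 6.87 to 8.81, 9.25 and 9.47. Aurka, a spindle kinase, rose 4.69-fold, and Ccnb1, the cyclin of Cdk1, 4.57-fold. The stimulated and resting arrays did not overlap for 26 of the 32 members, against 49.2% of all genes tested.

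Promoters of these groups were examined for letters known from cell cycle promoters, in the 250 bases before and 50 after the start of transcription (RefSeq, GRCm38.p6) for the 8258 tested genes with such a sequence. E2F letters were taken as TTTGGCGC, TTTCGCGC, TTTCCCGC or TTTGCCGC on either strand, and the CHR letters, the cell cycle homology region bound by the MuvB complexes, as TTTGAA on either strand. E2F letters were present in 12 of 30 DNA replication promoters (40%) and 6 of 13 of the G1 list (46.2%), against 4.41% of all promoters, 7.23% of those whose genes rose in BAF180-deficient cells and 3.40% of those whose genes fell. CHR letters were present in 19 of 27 mitosis promoters (70.4%), against 15.3% of all. Of promoters whose genes rose in BAF180-deficient cells 16.4% had CHR letters, and of those whose genes fell 13.7%. A match describes the letters of the window and not a bound site, and the shares describe lists chosen by gene function. A 60-base stretch is shown for 2 genes of each kind, because these genes carried rises named above or, for Cdc25a, because it is the phosphatase that activates Cdk2 and rose as well, with the match in capitals and the sequence on the strand of the gene.
Cdc6, chr11:98907987-98908046, plus strand, E2F letters read on the opposite strand: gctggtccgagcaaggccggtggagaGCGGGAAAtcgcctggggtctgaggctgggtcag
Cdc25a, chr9:109875486-109875545, plus strand, E2F letters: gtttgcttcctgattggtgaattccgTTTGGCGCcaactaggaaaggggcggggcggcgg
Cdk1, chr10:69352950-69353009, minus strand, CHR letters: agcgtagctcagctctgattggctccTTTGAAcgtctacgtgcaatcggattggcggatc
Top2a, chr11:99024335-99024394, minus strand, CHR letters: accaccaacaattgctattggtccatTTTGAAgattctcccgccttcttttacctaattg

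Inhibitors of the cycle behaved as individuals. Of 7 CDK inhibitors tested 0 rose and 2 fell in each genotype. Cdkn1b, which holds Naïve cells in quiescence, read 8.32, 8.93 and 8.36 at rest and 5.88, 5.90 and 5.56 after stimulation, a 6.75-fold fall, and Cdkn1c fell 1.94-fold. Cdkn1a read 8.11, 8.04 and 5.96 at rest and 8.08, 7.97 and 7.35 after stimulation, so that the groups overlapped and the response of 0.43 ± 0.47 was not called (adjusted p = 0.50), although under median scaling it was (1.41). Cdkn2a was at the floor at rest and read 4.65, 4.87 and 4.58 in stimulated BAF180-deficient cells, where 2 of 3 arrays detected it, with a response of 0.47 ± 0.22 (adjusted p = 0.093), while it was detected on none of the WT Naïve arrays. The difference of the Cdkn2a responses, 0.32 (95% interval -0.33 to 0.96), was not called.

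Ribosome production rose as a block. Of 58 ribosome biogenesis genes 45 were tested, 43 rose and 0 fell in BAF180-deficient cells, and 44 rose in WT cells, with medians of 1.51 and 1.49. Ebna1bp2, a large subunit assembly factor, went from 6.54, 6.37 and 6.22 to 8.65, 9.22 and 9.40, 6.56-fold. Nhp2, a protein of the box H/ACA particles, went from 8.77, 8.52 and 8.91 to 10.94, 10.92 and 11.57, a rise of 2.41 ± 0.16 (adjusted p = 3.8e-10). The list median differed by -0.03 between genotypes. The widest gap was in Bop1, an assembly factor whose response was 1.41 in BAF180-deficient and 2.33 in WT cells, a difference of -0.92 with an interval from -1.96 to 0.12.

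Mitochondrial ribosomal proteins followed. Of 75 genes 71 were tested, and 62 rose and 0 fell in BAF180-deficient cells with a median of 1.08, against 64 risers and a median of 1.12 in WT cells. Mrps6 read 6.35, 6.39 and 6.87 at rest and 8.75, 8.99 and 8.94 after stimulation, a 5.13-fold rise. The cytosolic ribosomal proteins did not share this. Of 64 tested, 6 rose and 8 fell in BAF180-deficient cells and their median response was -0.03, which became 0.73, with 27 rises and 1 fall, under median scaling. Rps27a (6.75-fold) and Rps27l (4.18-fold) were the largest rises in that group under quantile normalization, and Rpl22 read 8.43, 8.4 and 8.17 at rest and 7.47, 7.35 and 7.23 after stimulation, a response of -0.99 ± 0.32 that turned to 0.015 under median scaling.

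Amino acid supply gave the largest median of the lists under quantile normalization, while under median scaling its median of 2.53 was below the 2.68 of nucleotide synthesis. Of 16 genes of amino acid synthesis and the ATF4 response, which cells use when amino acids run short, 13 were tested, and 11 rose and 1 fell in each genotype, with medians of 2.38 in both. Psat1, a step of serine synthesis, went from 7.39, 7.57 and 7.19 to 10.36, 11.07 and 11.39, an 11.8-fold rise of 3.56 ± 0.25 (adjusted p = 6.5e-10). Chac1, which degrades glutathione, was at the floor in every resting array and read 8.08, 8.41 and 8.66 after stimulation, at least an 11.9-fold rise. Trib3, a pseudokinase induced by ATF4, read 7.31, 7.83 and 7.03 and rose at least 5.97-fold. With undetected genes set at their bound the list median was 1.87.

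The 20 tRNA synthetases, which load amino acids onto tRNA, were all tested. In BAF180-deficient cells 14 rose and 0 fell, with a median of 1.28, and in WT cells 17 rose and 0 fell, with a median of 1.57. Iars read 6.21, 6.78 and 6.91 at rest and 8.56, 9.30 and 9.61 after stimulation, a 5.74-fold rise. Aars went from 7.37, 7.30 and 6.92 to 8.96, 9.43 and 9.27, 4.07-fold. The rise was smaller in BAF180-deficient cells for 18 of the 20, with a median difference of -0.21 (-0.12 under median scaling), where 50.1% of all genes had a larger response in BAF180-deficient cells. None of the 20 was called, and Vars had the widest gap, -0.45 (95% interval -0.98 to 0.08).

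ATF4 binds CARE letters, searched here as TGATGNAA on either strand. They were present in 5 of 13 tRNA synthetase promoters (38.5%). In the amino acid synthesis and ATF4 list they were present in 3 of 13 (23.1%: Asns, Chac1 and Trib3). The share was 3.16% of all promoters, 2.51% of those whose genes rose in BAF180-deficient cells and 2.94% of those whose genes fell. The second list was assembled around the ATF4 response, so its share describes the chosen genes and is not a result of the stimulation. Gars, which rose, and Chac1 are shown, on the strand of the gene with the match in capitals.
Gars, chr6:55037941-55038000, plus strand, letters read on the opposite strand: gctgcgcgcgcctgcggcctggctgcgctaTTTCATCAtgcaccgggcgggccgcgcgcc
Chac1, chr2:119351023-119351082, plus strand, letters read on the opposite strand: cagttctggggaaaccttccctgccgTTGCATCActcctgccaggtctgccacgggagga

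Transporters of amino acids were mixed. Of 13 listed 11 were tested, and 5 rose and 1 fell in BAF180-deficient cells, against 7 and 1 in WT cells. Slc7a5, the light chain of the leucine transporter, went from 7.91, 7.83 and 8.10 to 10.81, 11.05 and 10.81, a 7.70-fold rise. Slc38a2, a glutamine carrier, fell 4.94-fold, from 10.89, 11.05 and 11.55 to 8.65, 8.77 and 9.16, a fall not called under median scaling (-1.18). Slc7a3, a carrier of cationic amino acids, was at the floor at rest in both genotypes and read 7.72, 7.33 and 7.50 in stimulated BAF180-deficient cells, below all stimulated WT arrays at 8.99, 9.02 and 8.67. It rose at least 6.53-fold without BAF180 and at least 16.4-fold in WT cells, and the difference of the responses was -1.47 (95% interval -2.32 to -0.62, unadjusted p = 0.0018), not called over all genes.

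Nucleotide synthesis rose in 21 of 27 tested genes and fell in 1 in BAF180-deficient cells, with a median of 1.70 against 1.68 in WT cells. Rrm2, the regulated subunit of ribonucleotide reductase, was undetected at rest and read 7.28, 7.70 and 8.33 after stimulation, at least a 7.79-fold rise. Tyms, which makes thymidylate, went from 7.99, 7.31 and 7.63 to 10.25, 9.69 and 10.42, 5.56-fold. Of 18 glycolysis genes tested, 10 rose and 1 fell, with a median of 1.43 against 1.61 in WT cells. Hk2, which traps glucose in the cell, went from 8.08, 8.4 and 6.94 to 10.93, 10.82 and 10.80, 8.25-fold, and Tpi1, which interconverts the triose phosphates, rose 7.63-fold. The difference in Pdk1, which keeps pyruvate out of the mitochondrion, was 1.07 (95% interval 0.14 to 2.01, unadjusted p = 0.026), with a response of 0.22 without BAF180 and -0.86 in WT cells, and was not called.

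Genes of mitochondrial respiration rose in both genotypes, with a lower median in BAF180-deficient cells and no member called for the difference. Of 73 tested respiratory chain genes 43 rose and 2 fell, with a median of 0.59, against 53 and 1 with a median of 0.80 in WT cells. Atp5o, a stalk subunit of ATP synthase, went from 5.67, 5.46 and 6.00 to 7.72, 7.12 and 7.52, 3.36-fold, with a difference of 0.02 between genotypes. The response was smaller in BAF180-deficient cells for 54 of the 73, while 50.1% of all genes had a larger response in BAF180-deficient cells. The median difference of the list was -0.21, and -0.09 without the resting WT replicate C. In Atp5mpl the resting WT replicate C read 8.86 beside 10.40 and 10.21 for A and B, and in Ndufa1 8.13 beside 9.80 and 10.06. The difference in these genes was -0.84 and -0.69 with that array included, and its low resting values enlarge the WT response.

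Lipid synthesis, protein folding and protein turnover rose in both genotypes. Of 26 tested cholesterol and fatty acid synthesis genes 17 rose and 0 fell, with medians of 0.85 and 0.90 in BAF180-deficient and WT cells. Tmem97, a sterol-regulated membrane protein, read 5.92, 5.99 and 5.76 at rest and 8.84, 8.98 and 9.01 after stimulation, an 8.31-fold rise. Of 28 tested chaperones 23 rose and 0 fell, led by the mitochondrial chaperonin Hspd1 at 6.51-fold. Of 38 tested proteasome subunits 26 rose and 1 fell, led by Psmd7 at 3.67-fold, from 8.12, 7.75 and 8.31 to 10.16, 9.56 and 10.10. The member that fell, Psmb10, belongs to the immunoproteasome, and its fall was not called under median scaling (-0.25). The plot of list medians gives these groups beside the others.

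**Figure D2:**
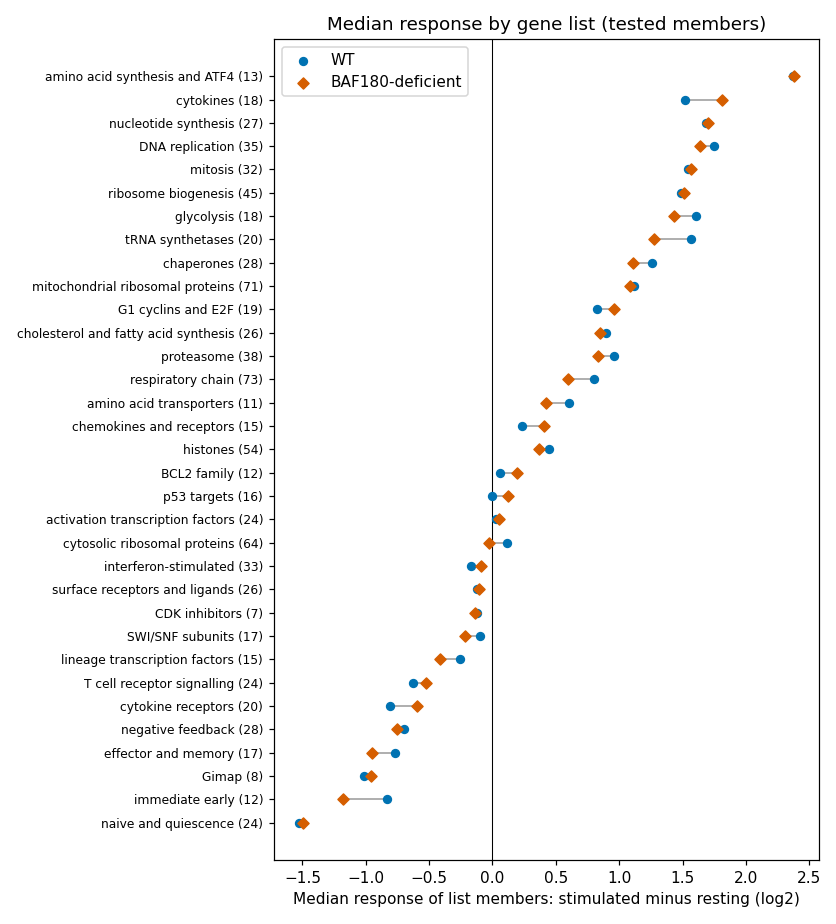
Median response (x axis, difference of log2 intensities) of the tested members of each of 33 gene lists, whose number of members is in parentheses, in WT (circles) and BAF180-deficient (diamonds) Naïve cells. Under quantile normalization, amino acid synthesis and ATF4 genes lie highest at 2.38 and naive and quiescence genes lowest at -1.50 in BAF180-deficient cells, and the symbols of the genotypes lie close together in most lists.

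Cytokine genes are the output of an activated helper T cell. Of 21 listed cytokines 18 were tested. Il22 and Il9 did not pass the detection filter, and Il2 was not analysed here. In BAF180-deficient cells 12 rose and 1 fell, and in WT cells 11 rose and 1 fell. The list median was 1.81 in BAF180-deficient and 1.52 in WT cells, or 1.39 in BAF180-deficient cells with undetected genes at their bound.

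Ifng, the signature cytokine of Th1 cells, read 7.91, 7.15 and 6.63 at rest and 11.12, 10.59 and 10.00 after stimulation, a 10.1-fold rise of 3.34 ± 0.40 (adjusted p = 1.2e-06). Stimulated WT cells read 10.12, 8.96 and 9.57, so that the groups overlapped by 1 array, and the difference of the responses was 1.00 (95% interval -0.19 to 2.19, unadjusted p = 0.096). Il3, a growth factor of blood cell precursors, was at the floor at rest and read 9.44, 8.12 and 6.97 after stimulation, at least a 10.3-fold rise. Il4, which directs Th2 cells, went from 7.06, 6.75 and 6.33 to 10.99, 9.85 and 8.55, 8.49-fold. In both genes replicate A was highest and replicate C lowest among the stimulated arrays.

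The Th2 cytokines Il5 and Il13 were undetected at rest. Il5 read 6.68, 6.76 and 5.47 after stimulation, at least 2.81-fold higher, and Il13 read 6.78, 6.31 and 5.54, at least 2.63-fold higher. Il24, a member of the IL-10 family, rose at least 3.02-fold. The Th17 cytokine Il17f went from 5.69, 5.85 and 4.55 to 8.83, 8.27 and 7.87, a 7.78-fold rise of 2.96 ± 0.34, while it was undetected in resting WT cells. Il17a rose 2.6-fold. Il21, which helps B cells, rose at least 4.17-fold, to 6.46, 7.21 and 6.94, and its WT response of 1.47 was not called (adjusted p = 0.059). The difference of 0.90 in Il21 had an interval from -0.92 to 2.72.

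Lta, which shapes lymphoid organs, rose 5.62-fold, the interleukin-6 family member Lif at least 2.14-fold and the myeloid growth factor Csf2 at least 1.76-fold. Ltb, the membrane partner of Lta, fell from 9.42, 9.07 and 10.12 to 7.64, 7.40 and 6.54, 5.08-fold, and by a similar amount in WT cells (-2.35 and -2.33). The immunoregulatory cytokine Il10 read 7.53, 7.58 and 5.45 at rest and 8.84, 8.15 and 6.63 after stimulation. Replicate C was low in both states, the groups overlapped, and the response of 1.02 ± 0.56 was not called (adjusted p = 0.15), nor was the WT response of 0.40 (adjusted p = 0.61). Under median scaling the Il10 response was called (1.94), as it was without the stimulated BAF180-deficient replicate C (1.64), while without the resting replicate C it was 0.32 and not called. Tnf (0.07), Osm (0.46), Tgfb1 (-0.10) and Il6 (0.17) were not called either, although under median scaling Osm was called (1.46) and the sign of the Tgfb1 value turned (0.82).

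Of the 18 cytokines 16 had a larger response in BAF180-deficient cells, against 50.1% of all genes. Their median difference of 0.30 fell to 0.06 without the stimulated BAF180-deficient replicate A. None of the 18 differences reached an unadjusted p below 0.05. The plot of cytokine levels shows that replicate A was the highest stimulated BAF180-deficient array for Ifng, Il4, Il3 and Il17f.

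**Figure D3:**
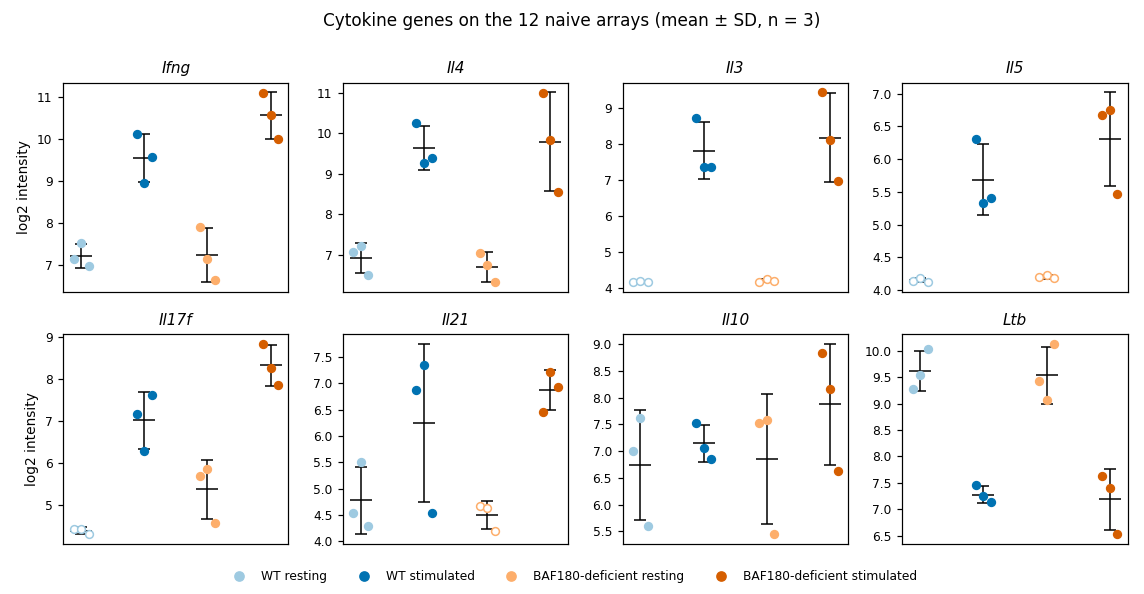
Level of 8 cytokine genes (y axis, log2 intensity) on the 12 Naïve arrays, with the mean and SD of each group (n = 3) and replicates A, B and C from left to right. Open points mark groups in which the gene was detected on no array, and Ltb is the gene of the 8 that fell.

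Receptors for cytokines fell more often than they rose. Of 20 tested 4 rose and 9 fell in BAF180-deficient cells, with a median of -0.60, and 4 rose and 11 fell in WT cells. Under median scaling 2 rose and 6 fell and the median was -0.01, still below the 0.27 of all genes. Il2ra, the chain that gives the IL-2 receptor its high affinity, went from 5.09, 5.66 and 5.62 to 8.19, 8.44 and 8.67, a 7.87-fold rise. Il7r, the receptor of the survival cytokine IL-7, fell 10.6-fold, from 9.48, 10.10 and 10.76 to 6.65, 6.6 and 6.88. Il6ra fell 7.19-fold and Ifngr1 7.15-fold. Il18r1, a receptor that amplifies IFN-gamma production, fell 6.18-fold, from 8.76, 8.08 and 8.60 to 5.68, 6.21 and 5.66, and stayed higher on all 3 stimulated arrays than in stimulated WT cells, which read 5.23, 4.69 and 4.54 (difference of responses 0.69, 95% interval -0.01 to 1.39).

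Of 26 surface receptors and ligands tested, 6 rose and 6 fell, against 9 rises and 0 falls under median scaling. These counts are near the shares of all 10418 genes, of which 22.1% rose and 21.3% fell, or 3090 and 685 genes under median scaling. Tnfsf8 (5.86-fold), Cd200 (4.86-fold), the transferrin receptor Tfrc (4.38-fold) and the costimulator Tnfrsf9 (4.38-fold) rose most. The inhibitory receptor Lag3 rose 3.46-fold, from 6.52, 7.13 and 6.26 to 8.57, 8.29 and 8.42. Cd69, an early activation marker, fell from 12.05, 12.07 and 11.29 to 9.78, 10.36 and 10.43, by 1.61, a fall not called under median scaling (-0.53). The Tfrc response was larger in BAF180-deficient cells by 0.82 (95% interval -0.004 to 1.65). The resting WT replicate C read 10.19 beside 8.78 and 8.70 for A and B, which lowers the WT response and enlarges that difference.

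Chemokines and their receptors split by member, with 6 rises and 5 falls among 15 tested, or 8 and 3 under median scaling. Ccl3, which draws inflammatory cells, rose 6.43-fold, from 7.30, 7.86 and 6.69 to 10.47, 10.01 and 9.42. Cxcr4, a homing receptor of resting lymphocytes, fell 9.34-fold and Ccl5 fell 7.18-fold.

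Among 24 transcription factors of activation, 7 rose and 4 fell in BAF180-deficient cells, and under median scaling 13 rose and 1 fell. Irf4, which grades effector programs by signal strength, went from 7.39, 7.44 and 6.18 to 9.19, 10.21 and 9.84, a 6.70-fold rise. Batf, its partner at composite sites, rose 3.48-fold, and Myc, which drives growth, went from 4.67, 4.94 and 5.12 to 6.57, 6.31 and 6.19, 2.72-fold. Hif1a, which drives glycolytic genes, read 5.61, 5.49 and 4.83 at rest and 5.40, 6.08 and 6.82 after stimulation, a response of 0.80 ± 0.35 that was not called (adjusted p = 0.077) but was under median scaling (1.34). Its WT response of 1.97 was called, and the difference of -1.18 (95% interval -2.21 to -0.14, unadjusted p = 0.028) was not.

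Of 15 tested lineage factors 2 rose and 7 fell, and under median scaling 3 rose and 1 fell. Tbx21, which directs Th1 cells, rose 6.32-fold, from 4.38, 5.29 and 4.57 to 7.28, 7.57 and 7.37. Bcl6, the factor of follicular helper cells, fell 3.83-fold, and Rora, a Th17 and innate lymphocyte factor, fell 5.05-fold. Foxp3, which defines regulatory T cells, read 9.44, 9.43 and 8.93 at rest and 8.38, 7.82 and 7.33 after stimulation, a 2.68-fold fall. Under median scaling the fall of Rora was called (-1.48), and those of Bcl6 (-0.96) and Foxp3 (-0.36) were not. Gata3 had a response of 0.41 that was not called (adjusted p = 0.075), although under median scaling it was (1.46).

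The quiescence program of Naïve cells receded in BAF180-deficient cells. Of 26 listed genes 24 were tested, 0 rose and 17 fell, with a median of -1.50, against 1 rise, 15 falls and a median of -1.53 in WT cells. Under median scaling 2 rose and 12 fell, with a median of -0.69. Klf2, which keeps T cells quiescent and recirculating, read 10.92, 10.96 and 11.01 at rest and 5.12, 5.34 and 4.86 after stimulation, a 58-fold fall with a response of -5.86 ± 0.21 (adjusted p = 2.1e-14). Txnip, which limits glucose uptake, fell 35.2-fold, from 10.91, 10.89 and 11.05 to 5.81, 6.03 and 5.61. Tsc22d3, a glucocorticoid-induced gene, fell 23.9-fold, and Pik3ip1, a brake on PI3 kinase, fell at least 8.4-fold.

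Tcf7, a factor of Naïve and memory T cells, fell 4.08-fold and Lef1 fell 2.24-fold, the latter a fall not called under median scaling (-0.36). The responses of Klf2, Txnip and Tcf7 differed from WT by -0.14, 0.18 and -0.26. Dapl1 was the member with the largest difference, 0.61 (95% interval 0.004 to 1.21), and read 4.76, 4.73 and 4.95 in resting BAF180-deficient cells, below the resting WT arrays at 5.93, 6.49 and 5.41.

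The Gimap GTPases, which help Naïve lymphocytes to survive, fell in 5 of 8 in each genotype, with a median of -0.96 in BAF180-deficient and -1.02 in WT cells, but only 1 fell under median scaling, where the median was -0.02. Gimap6 fell 6.12-fold, from 10.75, 10.63 and 10.46 to 8.24, 8.22 and 7.55. Of 24 T cell receptor signalling genes 0 rose and 10 fell, with a median of -0.52, and under median scaling 3 rose and 1 fell. Cd3g fell 3.65-fold and Trat1 6.71-fold, falls that were not called under median scaling (-0.75 and -1.66). Trat1, an adaptor of the receptor complex, spread widely, at 10.27, 10.07 and 10.34 at rest and 7.91, 7.58 and 6.96 after stimulation without BAF180, and 9.29, 8.62 and 7.18 in stimulated WT cells.

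Immediate early genes, which respond within minutes of a signal and fade, were lower at 24 h than at rest. Of 12 tested 2 rose and 7 fell in BAF180-deficient cells, with a median of -1.18 against -0.83 in WT cells, and under median scaling 1 rose and 4 fell. Fos, a partner in AP-1, read 11.17, 11.36 and 11.15 at rest and 5.12, 5.40 and 5.24 after stimulation, a 62.7-fold fall. Fosb fell at least 24.4-fold, Junb 7.62-fold and Jun 6.85-fold. Egr2, which limits T cell responses, was a riser, from 7.44, 7.71 and 6.74 to 9.0, 9.26 and 9.64, 4.02-fold. Leaving out 1 array at a time moved the median difference of this list between -0.38 and 0.27, so that its sign was not settled.

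Negative feedback genes fell alongside, with 4 rises and 16 falls among 28 tested and a median of -0.76, although under median scaling there were 4 rises and 5 falls and the median was 0.05. Dusp1, a phosphatase of MAP kinases, went from 11.67, 11.52 and 10.89 to 7.09, 7.37 and 6.76, a 19.5-fold fall. Zfp36, which destabilizes cytokine transcripts, fell 13.1-fold, Tnfaip3, which restrains NF-kappaB, 8.25-fold, and the diacylglycerol kinase Dgka 7.89-fold. Cish, a feedback inhibitor of cytokine receptors, was a riser, from 10.49, 10.22 and 9.27 to 11.54, 11.31 and 11.18, 2.54-fold.

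Genes of effector and memory cells fell. Of 17 tested 0 rose and 11 fell in BAF180-deficient cells, with a median of -0.95 against -0.77 in WT cells, where 8 fell, and under median scaling 0 rose and 4 fell. Itgae, an integrin of intraepithelial T cells, fell 9.61-fold, from 8.86, 8.42 and 8.64 to 5.65, 5.25 and 5.22. Ahnak fell 8.05-fold and S100a6 6.27-fold. S100a6 was above all WT arrays at rest, at 8.47, 7.85 and 7.34 against 6.88, 7.15 and 6.35, and 5.38, 5.47 and 4.87 after stimulation. The response was more negative in BAF180-deficient cells for 14 of the 17, while 50.1% of all genes had a larger response in BAF180-deficient cells. The median difference of the list was -0.20 and lay between -0.37 and -0.10 when arrays were left out singly. Cd44, the memory marker, fell by 0.67 (adjusted p = 0.034), with values of 7.76, 8.08 and 7.81 at rest and 7.6, 6.90 and 7.14 after stimulation, but under median scaling its response was 0.32 and not called.

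Histone genes showed both directions, with 21 rises and 5 falls among 54 tested. H1f2, a linker histone, fell 49.7-fold, from 11.34, 11.86 and 11.24 to 6.35, 5.64 and 5.53. H2ac11 rose 4.62-fold, from 7.36, 6.95 and 7.64 to 9.76, 9.26 and 9.57, and H2bc4 fell at least 4.49-fold. Histone genes are near copies of each other, so probes may read more than their own gene.

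Of the 10 largest falls 7 were in genes best known from other cells of the spleen and blood, and the others were Fos, Klf2 and LOC381924. Slc40a1, the iron exporter of macrophages, read 11.84, 12.62 and 11.92 at rest and was not detected after stimulation, at least a 180-fold fall. Vcam1, an adhesion molecule of stroma and macrophages, fell from 10.97, 11.50 and 10.99 to 4.32, 4.41 and 4.52, values near the floor on stimulated arrays of which 1 of 3 detected it. The lectin Fcna fell at least 82.6-fold, the lysozyme Lyz1 97.4-fold, the complement component C1qb at least 49.4-fold and properdin, Cfp, 57.6-fold. The haemoglobin gene Hba-a1 fell 57.1-fold. All 11 tested myeloid markers fell in BAF180-deficient cells, with a median of -3.27. The summed intensity of these markers was 4869 to 7188 at rest and 236 to 263 after stimulation, and their part in the falls of the lists above was not tested. LOC381924 fell at least 37.2-fold.

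Interferon-stimulated genes gave 2 rises and 10 falls among 33 tested, with 21 not called, and 5 rises and 4 falls under median scaling. Gbp2, a GTPase that IFN-gamma induces strongly, went from 9.75, 9.63 and 9.96 to 12.28, 12.09 and 12.47, a 5.66-fold rise, and Ifit3, which type I interferon induces, fell 5.49-fold, from 7.30, 7.79 and 8.65 to 5.82, 5.61 and 4.95. Among 12 BCL2 family genes 4 rose and 5 fell, or 4 and 1 under median scaling. The pro-apoptotic Bbc3 fell 12.5-fold, from 9.37, 8.98 and 9.17 to 5.24, 5.89 and 5.45, the anti-apoptotic Bcl2l1 rose 4.32-fold, and Bcl2 fell 2.68-fold, a fall not called under median scaling (-0.58). Of 16 p53 targets 2 rose and 5 fell, with Sesn1 falling 6.72-fold, while under median scaling 6 rose and 2 fell.

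Among the SWI/SNF subunits themselves the balance depended on the scaling, as it did over all genes. Of all 10418 genes 22.1% rose and 21.3% fell in BAF180-deficient cells, and under median scaling 3090 rose and 685 fell. Of 26 listed 17 were tested, with 5 rises and 4 falls in BAF180-deficient cells and 4 of each in WT cells, and under median scaling 5 rose and 1 fell and the median moved from -0.22 to 0.43. Smarca2, the BRM ATPase, fell 7.38-fold, from 10.20, 10.55 and 10.38 to 7.71, 7.50 and 7.27, with a WT response of -2.79 beside -2.88. Actl6a, the BAF53A subunit of dividing cells, rose 2.28-fold, from 6.34, 6.88 and 6.52 to 7.16, 7.86 and 8.28. Smarcc1 (1.92-fold) and Smarcb1 (1.77-fold), core subunits, rose as well. Smarcc2, another core subunit, rose 1.48-fold without BAF180 and not in WT cells, with a difference of 0.66 (95% interval 0.08 to 1.24, unadjusted p = 0.027) that was not called.

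The gene whose response differed between genotypes after adjustment was 4930486L24Rik, a protein-coding gene named from a RIKEN cDNA clone. It was not detected on any BAF180-deficient Naïve array, where it read 4.43, 4.52 and 4.29 at rest and 4.22, 4.16 and 4.21 after stimulation. Resting WT cells read 6.11, 5.86 and 5.49 and stimulated WT cells lay at the floor, at least a 2.25-fold fall. The difference of the responses was 1.41 (95% interval 0.95 to 1.87, adjusted p = 0.0433), and it rests on the level in resting WT cells alone. The call held without the resting WT replicate C and was lost when any other of the 12 Naïve arrays was left out (adjusted p between 0.0787 and 0.216). It was also lost under the 11 other settings of normalization, filter or fit, with values of 1.41 (adjusted p from 0.0614 to 0.2) where only the fit or the filter changed, 1.21 with the 12 Naïve arrays alone, 0.82 under median scaling and without background correction, and 0.72 with an offset of 50. The size depends on the floor, since the gene was undetected in 3 of the 4 groups. Its probe and that of Scg2, whose levels follow, are shown because the difference depends on a single probe in each.
4930486L24Rik: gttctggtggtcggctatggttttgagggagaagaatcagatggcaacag
Scg2: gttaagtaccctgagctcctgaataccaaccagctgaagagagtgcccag

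Other genes with small unadjusted p took several forms. Car11 was undetected in BAF180-deficient cells and read 5.84, 5.81 and 5.67 in resting WT cells, with a difference of 1.33 (unadjusted p = 7.2e-05). LOC229665 fell in both genotypes, from 6.83, 6.19 and 6.89 to 4.62, 4.64 and 4.74 without BAF180 and from 7.61, 7.78 and 7.33 to the floor in WT cells. Ampd1, the AMP deaminase of muscle, fell at least 2.13-fold without BAF180 and at least 3.79-fold in WT cells. Scg2, a granule protein of neuroendocrine cells, is a case in which stimulated BAF180-deficient cells stood higher. It was undetected at rest and read 6.92, 5.76 and 5.86 after stimulation, above the stimulated WT arrays at 4.98, 4.39 and 5.03, a rise of at least 2.59-fold. Its difference of 1.30 (95% interval 0.66 to 1.94) was not called.

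Of the 10 genes with the smallest unadjusted p among those less positive without BAF180, Slc7a3 is given above. Smpdl3b, a membrane lipid phosphodiesterase, read 6.81, 6.29 and 6.33 in resting BAF180-deficient and 4.30, 5.57 and 5.41 in resting WT cells, and its response was -0.97 and 0.56, a difference of -1.53 (95% interval -2.40 to -0.65). Lrrc75b, Vamp5, Cxcl13 and Rtn4rl1 were higher in resting BAF180-deficient cells and undetected after stimulation, with differences of -0.78, -0.78, -0.93 and -0.75. None of these passed adjustment over all genes. The plot of selected levels gives the arrays behind these values.

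**Figure D4:**
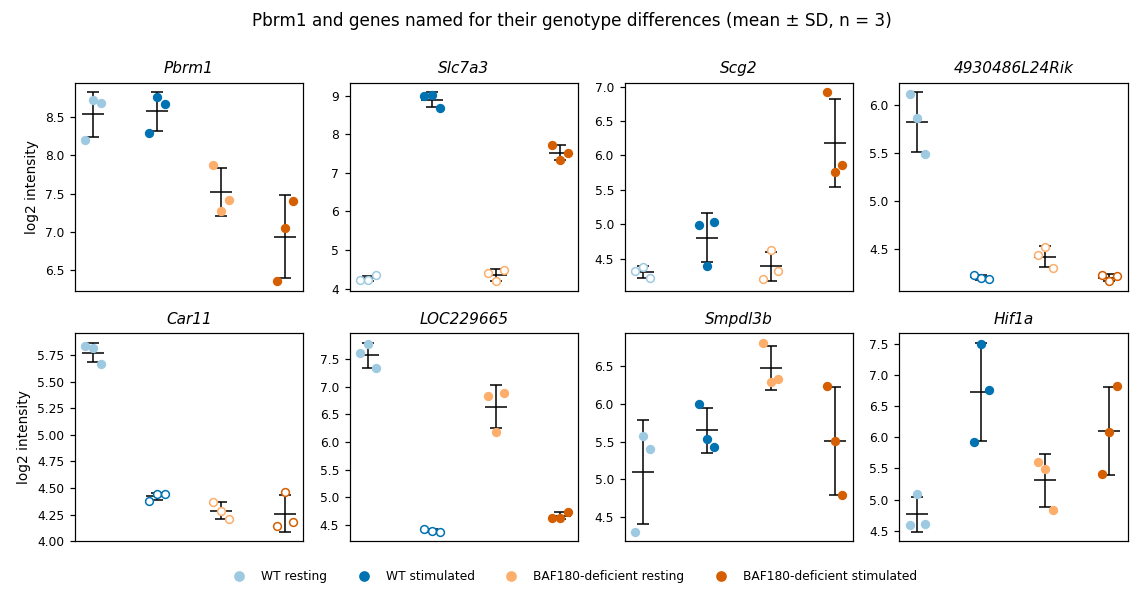
Level (y axis, log2 intensity) of Pbrm1 and 7 genes named for a difference in response on the 12 Naïve arrays, with the mean and SD of each group (n = 3) and replicates A, B and C from left to right. Open points mark groups in which the gene was detected on no array. The arrays of the genotypes do not overlap for Pbrm1 in either state, nor for Slc7a3 and Scg2 after stimulation. At rest they do not overlap for 4930486L24Rik, Car11, Smpdl3b and LOC229665. Except for Pbrm1, these genes were picked for a small p of the difference in responses, so their separation is not a test of genotype.

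Over the 33 lists the median difference of responses lay between -0.21, for the tRNA synthetases and the respiratory chain, and 0.30 for the cytokines, against 0.00 over all genes. Under median scaling the tRNA synthetases were at -0.12, the respiratory chain at -0.18 and the cytokines at 0.28, and the effector and memory genes (-0.22) and cytosolic ribosomal proteins (-0.21) were lower than these. The tRNA synthetases, respiratory chain, cytosolic ribosomal proteins and effector and memory genes kept a negative median difference, and the cytokines, chemokines and Gimap genes a positive one, when any single array was left out. For the cytokines, chemokines and Gimap genes the smallest such values were 0.06, 0.04 and 0.01. These medians describe lists whose members share arrays, and they carry no test.

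**Figure D5:**
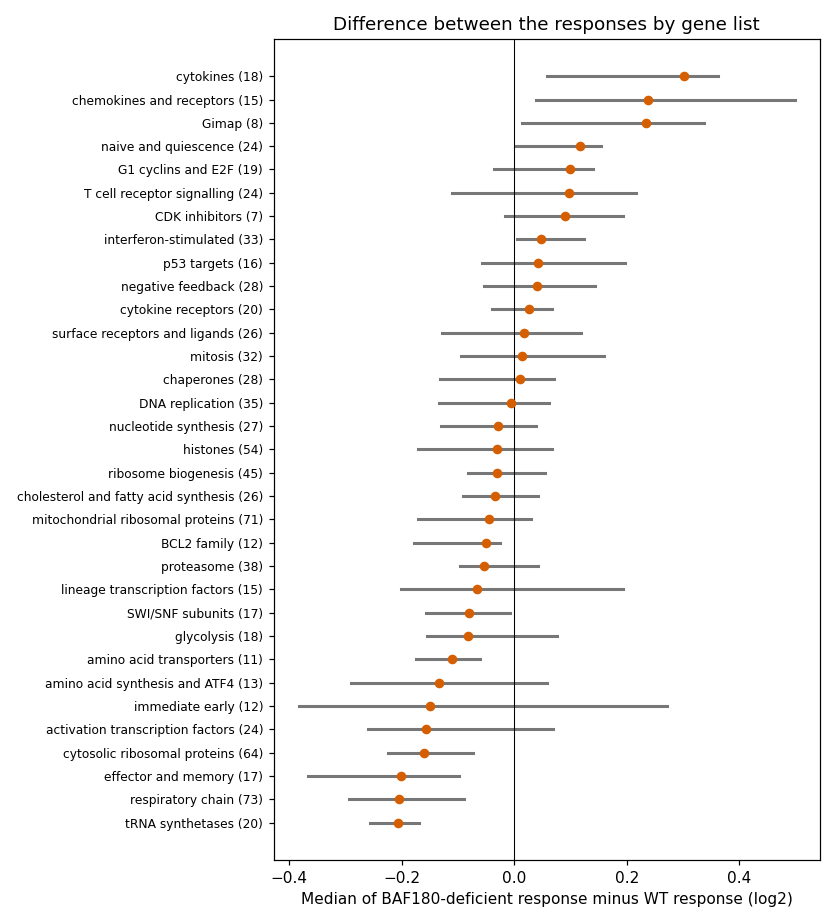
Median over list members of the BAF180-deficient response minus the WT response (x axis, log2), with the number of tested members in parentheses. Points are medians over all arrays and bars run from the lowest to the highest median when 1 of the 12 Naïve arrays was left out. Under quantile normalization, the tRNA synthetases and the respiratory chain lie at -0.21 and the cytokines at 0.30.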

How the data were processed

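The authors amplified and labelled total RNA with a TotalPrep kit, scanned the BeadChips and deposited, from GenomeStudio, each probe's average bead intensity without normalization and a detection p-value. The build behind the probe annotation is not given in the sources used here. The neqc function of limma (3.58.1, under R 4.3.3) took background from the detection p-values of all 25697 probes and added 16. It applied quantile normalization and the log2 scale across all 24 arrays. A probe then entered the tests when at least 1 of these arrays detected it (p-value of 0.02 or lower), which left 14246. Means of 8 groups were fitted together (lmFit, eBayes, 16 residual degrees of freedom) and p-values were adjusted by Benjamini-Hochberg across the kept probes. Each gene was read from its brightest probe, and 2682 genes had several. With 3 arrays in a group their number limits precision. The code was tested on simulated data.

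Genes were named by rule: Pbrm1, the 10 largest rises and 10 largest falls among called genes without overlap and detected throughout the higher group, the cytokines, up to 4 members of each list with the largest response and 2 with the largest difference, and the 10 smallest p of the difference in each direction. Others (Myc, Egr2, Cd69, Tcf7, Lef1, Foxp3, Gata3, Cd44, Rb1, Gars, Cd3e, Cdc25a and Psmb10) were added after their values were seen. Some genes that the rule names are not reported here. The members and lists were chosen with earlier results of these data known. A gene undetected in a group was bounded by the lowest detected signal of each array. Alternatives covered normalization (with the Z-scores of the study), background, filters, samples, thresholds, probes and left-out arrays.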

Additional observations from a re-analysis of the deposited data

Results flagged for a closer look

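The response of 4930486L24Rik differed between the genotypes by a test of the difference itself, with a value of 1.41 (BAF180-deficient minus WT, log2, 95% interval 0.95 to 1.87, adjusted p = 0.0433, limma). The 3 resting WT arrays read 6.11, 5.86 and 5.49, all above the 3 resting BAF180-deficient arrays at 4.43, 4.52 and 4.29, and the gene was undetected in stimulated cells of both genotypes. With arrays left out singly, the call held without the resting WT replicate C (1.58, adjusted p = 0.00554), and leaving out any other of the 12 Naïve arrays gave values from 1.29 to 1.48 with an adjusted p between 0.0787 and 0.216. The call was lost under 11 other settings of normalization, filter or fit as well, with 1.41 where only the fit or the filter changed (adjusted p from 0.0614 to 0.2), 1.21 with the 12 Naïve arrays alone (adjusted p = 0.365), 0.82 under median scaling and without background correction, 0.72 with an offset of 50 and, in Z units, 0.49 under Z-score normalization. The size depends on the floor, because 3 of the 4 groups did not detect the gene.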

How the results depend on the processing

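The number of genes called in BAF180-deficient cells was 1371 under the 4 criteria of the methods and 2316 with a log2 difference of at least 1, and 3862 to 4651 when 1 array was left out. The WT numbers were 1331, 2407 and 4016 to 4785. A replicate block gave 4740 and 4926. Of 157 named responses 150 were called, and 19 of these lost the call at least once, 15 under median scaling.

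For the difference of responses 0 genes were called under Z-score normalization, median scaling, no background correction, an offset of 50, no detection filter, detection on all arrays of a group, the 12 Naïve arrays alone, the compared groups alone, an intensity trend, a replicate block, and a replicate block within state (chosen after seeing the data). An unadjusted p, also chosen then, gave 237 genes. Leaving out 1 array gave 0 to 4. The 4 without the resting WT replicate C included 4930486L24Rik (1.58), Pip (1.95) and Sh2d1b1 (-0.84). The ratio of spreads stayed between 0.950 and 1.03.

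Pbrm1 in stimulated cells lost its call under median scaling (-1.54), with the 12 Naïve arrays alone (-1.62), with the compared groups alone (-1.63) and without the stimulated WT replicate B (-1.54), and was -1.86 to -1.34 with arrays left out. In resting cells it was -1.19 to -0.89, called without the stimulated BAF180-deficient replicate A. Signs turned for uncalled Tnf (-0.12 without resting BAF180-deficient replicate C, -0.13 without stimulated replicate A, range -0.13 to 0.30), Tgfb1 (0.11 under Z-scores, 0.82 under median scaling, 0.047 without resting replicate B, range with arrays left out -0.30 to 0.047) and Cdkn1a (-0.27 without resting replicate C, range -0.27 to 0.81), for Rpl22 (0.015 under median scaling) and for the Dusp10 difference (-0.048 without resting WT replicate A, range -0.048 to 1.47). The causes were not tested.

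Samples of the same letter had correlated deviations of 0.0947, 0.166 and 0.0785 between resting and stimulated BAF180-deficient cells, -0.0029, 0.057 and 0.107 between those of WT cells, 0.161, -0.0128 and 0.466 between genotypes at rest and 0.668, 0.27 and 0.375 between genotypes after stimulation, for A, B and C. They were over 0.1 for every letter only in the last case, and whether letters pair samples was not settled. A block for the BeadChip was not run, since the table names no chip. Weak signal limits genes undetected in a group to a bound or a floor value.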
